A study of Mus musculus with 22 samples.

Results

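Peeled esophageal epithelium of 4 mice with eosinophilic esophagitis (EoE) was compared with that of 6 untreated control mice. The 16 libraries of this comparison, 4 from EoE and 12 from control mice, were taken by their disease label from the 22 libraries of the series, and the UMIs of all deposited cells were summed per mouse, so that 10 of the 13 mice entered, each as 1 replicate. Cells had been captured by inDrop, a droplet method in which each captured transcript carries a cell barcode and a unique molecular identifier (UMI). The remaining 3 mice carried esophageal squamous cell carcinoma (ESCC) after 4-nitroquinoline 1-oxide and were used here only where a level in them bears on a value in EoE.

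All mice were C57BL6. EoE-like inflammation was raised over 32 days with MC903 (calcipotriol, a vitamin D analog) and the food allergen ovalbumin (OVA), given on the scraped skin of the ears for 12 days, followed by OVA by gavage and in the drinking water from day 15. EoE mice 9 and 10 were young (6 to 8 weeks) and EoE mice 11 and 12 were old (19 to 20 months), and the values of the 4 EoE mice are given below in this order. Control mice 1, 2 and 6 were young (3 to 4 months) and control mice 3, 4 and 5 were old (18 to 20 months). No mouse in this comparison received MC903 without OVA, so an effect of the skin treatment and an effect of the allergen cannot be told apart, and the young EoE mice were younger than the young controls.

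The esophagus of the mouse is lined by a stratified squamous epithelium. Basal cells divide on the basement membrane, to which they are held by integrins and collagen XVII, and express keratins 5, 14 and 15. Their progeny move up, switch to keratins 4 and 13, join through desmosomes and finally form a cornified layer of cross-linked envelope proteins. EoE is an allergic disease driven by interleukin 13, in which eosinophils enter this epithelium, the basal compartment commonly widens and the barrier weakens.

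EoE libraries were shallow. An EoE mouse gave 61571 to 85774 UMIs over 246 to 487 cells, with a median of 101 to 213.5 UMIs per cell, against 112412 to 427752 UMIs over 71 to 409 cells and a median of 852 to 1377 UMIs per cell in controls. Fewer than 250 genes were detected in 1356 of the 1500 EoE cells (90.4%) but in none of the 1500 control cells. Depth per cell and disease therefore cannot be told apart. With control mice thinned to 75040 UMIs each, 555 genes were higher and 600 lower of 1715 tested, and values from the deeper EoE cells alone are given below where they turn a direction. Mitochondrial genes took 3.60 to 7.94% of the UMIs of an EoE mouse and 3.56 to 7.59% of those of a control. Cell barcodes were rarely shared, with 8 over the 6 pairs of EoE libraries and 11 over the 48 pairs of an EoE and a control library, while the paired libraries of a control mouse, which were pooled, shared 122 in all.

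The counts of the EoE libraries stood apart from those of the controls gene by gene, also outside the genes of epithelium. In 140 genes no UMI was counted in any EoE mouse although the control level predicted at least 10 over the 4 mice, and each of the 140 had UMIs in the ESCC mice. A further 51 genes had at least 10 UMIs in EoE and none in controls, and 29 of these had none in ESCC either. Of the 140 genes, 57.1% had an exon that overlaps an exon of a gene on the opposite strand, against 39.2% of the 51 and 28.6% of the 3477 genes tested. The methods describe 1 pipeline of alignment and counting for all samples, and whether it counted reads by strand is not given in the sources used here. The part of the counting in these differences was not tested. Reads from a stretch shared with an overlapping gene or with a copy elsewhere cannot be assigned with certainty. A copy here means that at least 10% of the 31-base words at the transcript end occur in another gene.

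Ribosomal protein S27 shows the pattern most plainly. Rps27 on chromosome 3 (chr3:90212522-90213651, minus strand, GRCm38) and its intronless copy Rps27rt on chromosome 9 (chr9:114982366-114982739, minus strand) have the same coding sequence over all 255 bases by GENCODE M21. Its start and stop codons are in capitals, and it is given because a read inside it fits both genes:
Rps27 and Rps27rt: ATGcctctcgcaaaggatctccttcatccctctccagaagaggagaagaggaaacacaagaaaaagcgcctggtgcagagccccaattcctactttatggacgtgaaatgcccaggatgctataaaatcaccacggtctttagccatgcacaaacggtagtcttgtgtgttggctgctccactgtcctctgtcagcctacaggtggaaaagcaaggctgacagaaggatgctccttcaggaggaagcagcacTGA

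Rps27rt stood at 14174, 13157, 13503 and 13016 CPM in the 4 EoE mice and at 0 to 3.97 CPM in controls, where CPM (counts per 1e6) are the UMIs of a gene scaled to the TMM-adjusted total of the mouse. Its 3304 UMIs in EoE against 1 in controls gave a ratio of 20892 (95% counting interval 3747 to 825456), the single control UMI being in mouse 5. Rps27 itself had 5 UMIs in EoE and 20 in controls but 15891 in ESCC, where Rps27rt had 2896. UMIs for S27 thus stood under Rps27rt in EoE and under both symbols in ESCC, and were few under either in controls.

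Across all genes, 2114 of 3477 tested (60.8%) passed an adjusted p of 0.05 in edgeR's quasi-likelihood test with Benjamini-Hochberg adjustment. EoE was higher in 976 (28.1%) and lower in 1138 (32.7%). Past a 2-fold change, by a test against that fold added after the data were seen, 492 (14.2%) were higher and 614 (17.7%) lower. Among the called genes, 1652 (47.5% of those tested) had no overlap between the 4 EoE and the 6 control mice. These shares are the background for every list below.

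**Figure D1:**
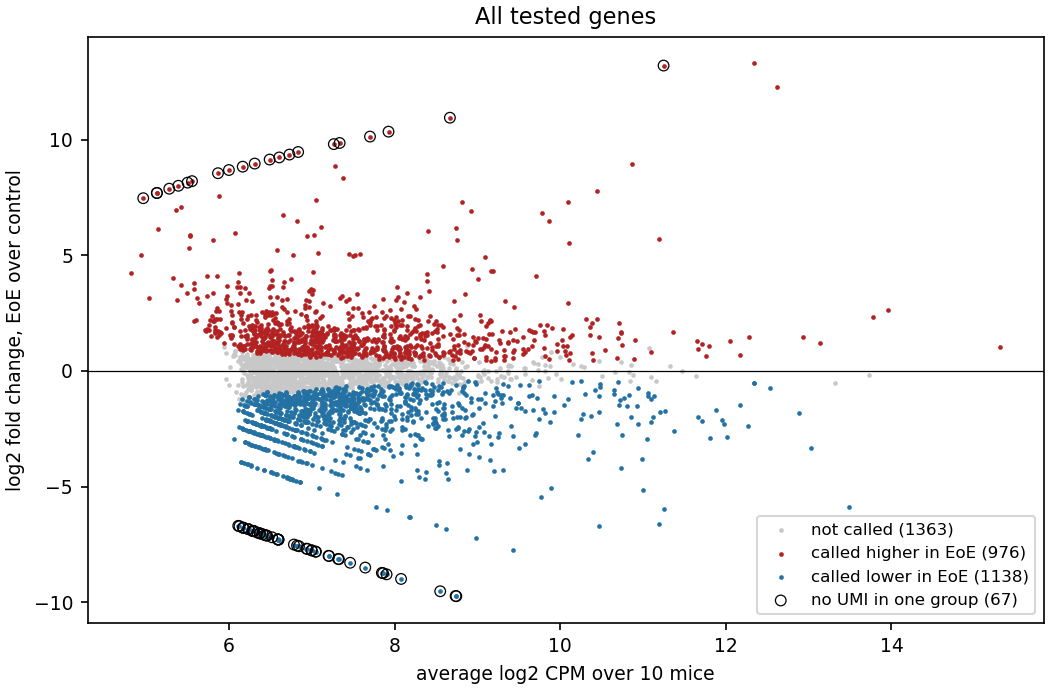
Log2 fold change of EoE over control (y) against the average log2 CPM over 10 mice (x) for each of the 3477 genes tested, with the 976 called higher in red, the 1138 called lower in blue and the 1363 not called in grey. Circles mark the tested genes without a UMI in 1 of the groups (46 in EoE, 21 in control), which form the curved outer edges of the cloud.

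Calls differed with gene length. Genes called lower spanned a median of 16781 bases on the genome, genes not called 33550.0 and genes called higher 35980.5. In the shortest of 5 equal bins of genes (up to 8652 bases) 335 of 692 were lower and 157 higher, while in the longest bin (from 75115 bases) 100 of 691 were lower and 276 higher. The median log2 fold change rose from -0.72 in the shortest bin to 0.40 in the longest, and its part in the lists below was not tested.

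The largest differences were mostly all-or-none. Among called genes without overlap between mice whose average log2 CPM was 5 or more, the 12 with the largest rise were Rps27rt, LOC102638448, Rpl17-ps8, Gm37500, Igf2bp3, Trpv2, Amd2, Olfr160, Prtg, St6galnac6, Olfr157 and Snhg11. Of these, 10 had no UMI in any control mouse. Counted against a floor of 3 UMIs over the control group, EoE was at least 3278-fold higher for Rpl17-ps8, a processed pseudogene of Rpl17, at least 462-fold for Igf2bp3, an RNA-binding protein usually confined to fetal tissue and tumors, at least 419-fold for Trpv2, a cation channel, and at least 202-fold for Snhg11. Olfr157 and Olfr160, olfactory receptor genes, had 104 and 152 UMIs in EoE, none in controls and 1 and 0 in ESCC.

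All of the 12 genes with the largest fall had no UMI in any EoE mouse. They were Ndufa4l2, Cox5a, Fxyd3, Igfbp7, Ost4, Gm12669, Ndufb6, Sh3bgrl3, Uqcrc2, Cdk4, Gm9794 and Grcc10. Cox5a, a subunit of cytochrome c oxidase, was at 535 to 655 CPM in controls, so that EoE was at least 48.3-fold lower against a floor of 3 UMIs. Cdk4, the G1 kinase partnered by cyclin D, was at least 15.6-fold lower and had 1174 UMIs in ESCC. Each of the 24 genes named so far by the size of its change has an annotated overlap or copy except LOC102638448, which did not match the annotation, and Trpv2, Olfr160, Prtg, St6galnac6 and Olfr157.

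Removing every gene with an overlap or a copy, a choice made after seeing the data, left 2054 genes, of which 598 were higher and 631 lower. Log2 fold changes had an SD of 1.79 over genes with neither, of 2.21 over genes with an overlap and of 3.33 over genes with a copy. A change of more than 8-fold was estimated for 7.14%, 11.7% and 24.5% of them in turn.

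Keratins marked the contrast among the epithelial genes. Keratin 5 (Krt5), the basal type II keratin, stood at 1156, 1098, 1509 and 1022 CPM in EoE and at 4616 to 7590.0 CPM with a median of 5486 in controls (log2 fold change -2.28, SE 0.22, edgeR adjusted p = 5.15e-09). Keratin 14 (Krt14), its type I partner, was at 729, 486, 584 and 426 CPM against 1730.5 to 3653 CPM with a median of 2808 (log2 fold change -2.30, SE 0.24, edgeR adjusted p = 1.70e-08). Keratin 15 (Krt15), a keratin of quiescent basal cells, was at 1459, 1098, 1589.8 and 1107 CPM against 4684 to 7065 CPM with a median of 5203 (log2 fold change -2.10, SE 0.21, edgeR adjusted p = 1.28e-08). For each of these 3 basal keratins, every EoE mouse lay below every control. Krt5 has an annotated overlap with Gm44323 on the opposite strand, and Krt14 and Krt15 have neither an overlap nor a copy.

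Integrins of the basal layer went the other way. Itga6, the α6 chain of the hemidesmosomal integrin, was at 2078, 1208, 2355 and 1959 CPM against 575 to 880.2 CPM with a median of 643 (log2 fold change 1.48, SE 0.20, edgeR adjusted p = 9.62e-07). Its partner Itgb4, which has an annotated overlap, was at 1087, 878, 1489 and 1227 CPM against 275 to 707 CPM with a median of 489.7 (log2 fold change 1.28, SE 0.22, edgeR adjusted p = 2.35e-05), and Itgb1 rose by 1.15 on the log2 scale. The groups did not overlap for any of the 3 integrin chains. Col17a1, the transmembrane collagen of the same hemidesmosome, was at 27.5, 15.7, 80.5 and 102 CPM against 662 to 965 CPM with a median of 758 (log2 fold change -3.86, SE 0.33, edgeR adjusted p = 8.92e-10), and it too had no overlap.

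Over the whole basal list, 16 of 22 genes were tested, and 4 were higher and 8 lower, with a median log2 fold change of -0.84 against -0.15 over all tested genes. The other 4 lower members, named after their values were seen, included Trp63 (-0.70), the master regulator of squamous epithelium, and Lamb3 (-0.98), a laminin chain of the basement membrane. Trp63 was lost without EoE mouse 9 (-0.56, edgeR adjusted p = 0.0502), and Lamb3 without EoE mouse 9 or 10 (-0.77 and -0.65). Sox2, a basal transcription factor, was at 592, 455, 745 and 392 CPM against 338 to 680.3 CPM with a median of 509 and was not called. The fourth higher member was Mt2, treated below with the metallothioneins. Together the basal genes took 1.08 to 1.63% of the UMIs of an EoE mouse and 1.43 to 2.11% of those of a control, so these ranges overlapped. Mt2, with the largest rise of the list (log2 fold change 5.71), is part of these sums, and shares without it were not computed.

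**Figure D2:**
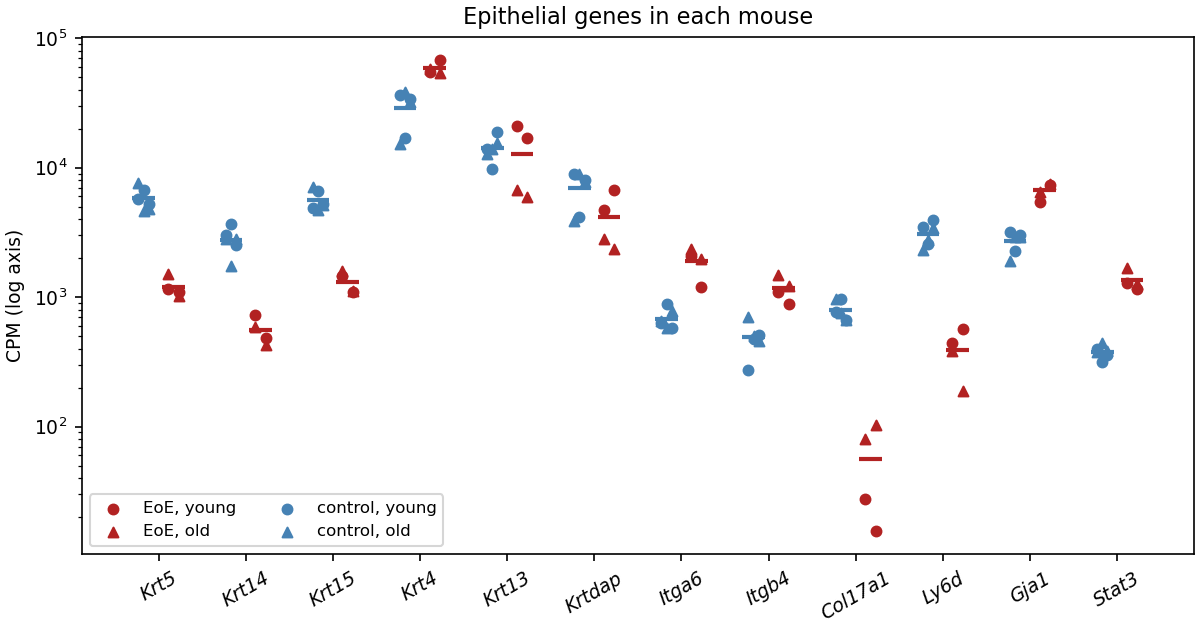
CPM on a log axis of 12 genes in each of the 4 EoE mice (red) and 6 control mice (blue), with circles for young and triangles for old mice and a bar at the group mean. Krt5, Krt14, Krt15, Col17a1 and Ly6d of the EoE mice lie below all controls, and Krt4, Itga6, Itgb4, Gja1 and Stat3 lie above them, while Krt13 and Krtdap of the groups overlap.

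Keratin 4 (Krt4), the suprabasal keratin of the esophagus, was the most abundant transcript of each EoE mouse and of control mice 1, 4, 5 and 6. It stood at 54508, 67622, 58038 and 54196 CPM against 15139.7 to 38632 CPM with a median of 33086 (log2 fold change 1.02, SE 0.26, edgeR adjusted p = 0.0016), with every EoE mouse above every control. Its partner keratin 13 (Krt13) was at 21054, 17031, 6782 and 5895 CPM against 9725 to 18968 CPM with a median of 13993 and was not called (log2 fold change -0.16, SE 0.29, edgeR adjusted p = 0.657), with both young EoE mice above both old ones. Krtdap, a secreted protein of differentiating keratinocytes, was at 4748, 6759, 2797 and 2334 CPM against 3906 to 8995 CPM with a median of 7921 (log2 fold change -0.74, SE 0.29, edgeR adjusted p = 0.03). The values of Krtdap overlapped, and the call was lost without EoE mouse 11 (-0.53, edgeR adjusted p = 0.148) or EoE mouse 12 (-0.51, edgeR adjusted p = 0.152).

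Most other suprabasal genes were lower. Of 20 tested members, 13 were lower (65.0%, against 32.7% of all genes) and 3 higher (15.0%, against 28.1%), with a median of -0.99. Together the list took 5.94 to 8.93% of the UMIs of an EoE mouse and 4.43 to 7.98% of those of a control, so these ranges overlapped. Krt4 is part of these sums, and shares without it were not computed. Ly6d, a surface marker of squamous cells, was at 440.4, 565, 382 and 187 CPM against 2321 to 3930.3 CPM with a median of 3084 (log2 fold change -2.96, SE 0.26, edgeR adjusted p = 1.58e-09), and Dmkn, which is secreted by differentiating keratinocytes, at 1376, 1474, 362 and 409 CPM against 2342 to 4132 CPM with a median of 3162 (log2 fold change -1.79, SE 0.31, edgeR adjusted p = 3.88e-05). Neither overlapped. Gsta4 (-1.98), Anxa1 (-1.96) and the sodium pump gene Atp1b3 (-0.95) fell as well. Klf4, a transcription factor that drives squamous differentiation, rose, with 7059, 4752, 2837 and 3578 CPM against 939 to 1808 CPM with a median of 1429 (log2 fold change 1.67, SE 0.23, edgeR adjusted p = 1.28e-06) and no overlap.

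Of 18 tested genes of the cornified envelope, 3 were higher (16.7%, against 28.1% of all genes), 5 lower (27.8%, against 32.7%) and 10 not called. Ppl, which encodes the envelope scaffold periplakin (0.98), the protease gene Asprv1 (1.09) and Lor, which encodes loricrin (1.27), were higher. Each of these 3 overlapped between the groups and lost its call without EoE mouse 10, with log2 fold changes of 0.67, 0.80 and 0.75 and edgeR adjusted p of 0.0745, 0.0548 and 0.292. Lor was also lost without control mouse 5 (1.15, edgeR adjusted p = 0.0746) and was not called by DESeq2 (adjusted p = 0.124). Lower were the cross-linking enzyme genes Tgm3 (-1.17) and Tgm1 (-2.92), the cysteine protease inhibitor gene Cstb (-3.16), Prom2 (-1.83) and Sprr2a3 (-1.48). Sprr2a3 has a copy and Tgm1 an overlap. Sprr3, an abundant envelope precursor of the esophagus, was at 2656, 2760.1, 362 and 358 CPM against 50.5 to 3279 CPM with a median of 1803 and was not called. Among keratins of other epithelia, Krt6a, a keratin of wounded epithelium, was not called (0.61, but called without EoE mouse 12 at 0.87 or control mouse 1 at 0.84), Krt32 fell by 1.42, and no simple epithelial keratin was tested.

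The values of these epithelial genes depended on which EoE cells were summed. The 144 EoE cells within 250 to 3500 genes differed in makeup from the 1356 under 250 genes. The 144 came as 41, 57, 11 and 35 cells from the 4 EoE mice. They held 31858, 41909, 6245 and 18320 UMIs, so values from them rest on few cells, fewest in mouse 11. Suprabasal genes took 15.8, 12.5, 18.4 and 12.8% of the UMIs of these cells in the 4 EoE mice and 3.96, 4.83, 4.88 and 3.61% of those of the EoE cells under 250 genes. Cornified genes took 3.02, 2.62, 2.29 and 1.21% against 0.169, 0.315, 0.255 and 0.173%. Basal genes took 0.364, 0.620, 0.464 and 0.486% against 1.72, 1.61, 1.76 and 1.43%. In each of the 4 EoE mice the deeper cells thus held the larger share of suprabasal and cornified transcripts and the smaller share of basal ones. Depth and layer cannot be told apart among these cells.

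The 3 basal keratins were lower than in controls in both sets of EoE cells. Krt14 differed by -1.91 (SE 0.24) from the cells under 250 genes and by -4.25 (SE 0.40) from the cells within the limits. The integrins changed sign: Itga6 was at 1.80 from the cells under 250 genes and at -0.36 (edgeR adjusted p = 0.311) from those within the limits, Itgb4 at 1.61 and -0.57 (edgeR adjusted p = 0.172) and Itgb1 at 1.47 and -0.46 (edgeR adjusted p = 0.319). Krt4 was at 1.71 (edgeR adjusted p = 4.72e-05) from the cells within the limits and at 0.25 (edgeR adjusted p = 0.385) from the cells under 250 genes, and the difference between the sets was not itself tested. Krt13 was lower from the cells under 250 genes (-1.22, edgeR adjusted p = 8.20e-05) and at 0.66 (edgeR adjusted p = 0.0945) from those within the limits.

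Cornified and inflammatory genes of the upper layers turned as well. Cnfn, which encodes cornifelin, was at 0.98 and not called over all cells. It was called without 1 of EoE mice 11 and 12 or control mice 3 and 6 (0.79 to 1.24), in the young mice alone (1.29, edgeR adjusted p = 0.0262), under other filters on genes (0.83 without a filter and 1.14 with at least 10 UMIs in each of 4 mice) and without mitochondrial and ribosomal protein genes (0.99, edgeR adjusted p = 0.0497). It was at -1.25 (edgeR adjusted p = 0.0171) from the cells under 250 genes and at 2.19 (edgeR adjusted p = 1.99e-05) from those within the limits. Ppl went from -0.65 (edgeR adjusted p = 0.0700) to 2.01, Asprv1 from -0.44 (edgeR adjusted p = 0.303) to 2.06 and Lor from -0.19 (edgeR adjusted p = 0.815) to 2.30. Sprr3 went from -4.50 (edgeR adjusted p = 3.76e-05) to 1.26 (edgeR adjusted p = 0.0348). The median of the cornified list moved with them, from -2.18 to 1.07.

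**Figure D3:**
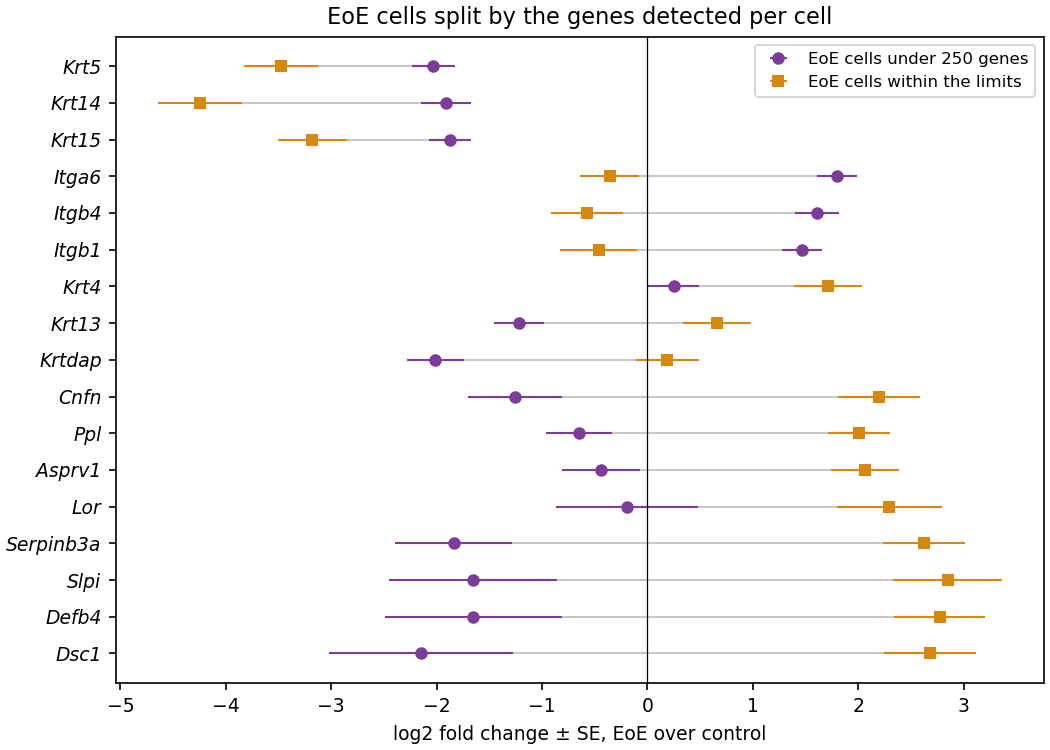
Log2 fold change of EoE over control, with its SE, for 17 genes when only EoE cells under 250 genes (purple circles) or only EoE cells within 250 to 3500 genes (orange squares) were summed, against the same control mice. Krt5, Krt14 and Krt15 lie below 0 in both, the integrin genes lie above 0 only in the cells under 250 genes, and Cnfn to Dsc1 lie above 0 only in the cells within the limits.

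Junction genes outside the desmosome were higher or not called. Gja1, which encodes the gap junction protein connexin 43, was at 5477, 7371, 6480.0 and 7548 CPM against 1887 to 3195 CPM with a median of 2923 (log2 fold change 1.31, SE 0.19, edgeR adjusted p = 3.02e-06). Of 6 tested tight, gap and adherens junction genes, 4 were higher and none lower, with a median of 0.95, among them Cdh1 (1.11), which encodes E-cadherin, and F11r (0.80). The groups did not overlap for Gja1, whereas Cdh1 and F11r overlapped and lost their calls without EoE mouse 9 (0.56 and 0.32, edgeR adjusted p = 0.125 and 0.384). F11r was also lost without control mouse 1 (0.67, edgeR adjusted p = 0.0533). The list took 0.619 to 0.755% of the UMIs of an EoE mouse and 0.239 to 0.414% of those of a control. Most of these UMIs were of Gja1, with 322 to 470 per EoE mouse where the list had 381 to 590. In controls Gja1 had 187 to 1152 and the list 269 to 1674, and the share without Gja1 was not computed.

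Of 11 tested desmosome genes, 4 were lower (36.4%, against 32.7% of all genes) and 2 higher (18.2%, against 28.1%). Pkp1 (-1.46), Dsc3 (-0.89), Dsc2 (-0.74) and Dsg3 (-0.66) fell and the desmosomal cadherins Dsg1b (1.48) and Dsc1 (1.36) rose. Dsc1 was at -2.15 (edgeR adjusted p = 0.0348) from the EoE cells under 250 genes and at 2.68 from those within the limits. Without 1 mouse several calls were lost: Dsc1 without EoE mouse 9 or 10 (1.24 and 0.68), Dsg3 without EoE mouse 9 or 12 (-0.56 and -0.42), and Dsc2 without EoE mouse 11 or 12 (-0.63 and -0.46) or control mouse 1 or 6 (-0.66 and -0.69). Dsp, which encodes desmoplakin, was at 2257, 2776, 1187 and 1227 CPM against 1827 to 3057 CPM with a median of 2579.6 and was not called over all cells. It was lower without EoE mouse 10 (-0.63, edgeR adjusted p = 0.0349), in the old mice alone (-1.06, edgeR adjusted p = 0.00231) and from the EoE cells under 250 genes (-1.20, edgeR adjusted p = 8.46e-06), and also with total UMIs as the scale (-0.59), without a filter (-0.56) and with age as a covariate (-0.49).

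Notch signaling promotes the exit from the basal layer, and its genes were called in both directions. Jag1, a ligand, was at 399, 423, 302 and 392 CPM against 133 to 175 CPM with a median of 149 (log2 fold change 1.32, SE 0.20, edgeR adjusted p = 4.40e-06), and Adam10, the protease that sheds the receptor ectodomain, rose by 1.31. Notch2 rose by 1.91 and Notch3 and the ligand Jag2 fell, at -1.98 and -0.93. From the EoE cells within the limits Jag1 was at 0.60, Adam10 at 0.64 and Notch3 at -1.10 (edgeR adjusted p = 0.221, 0.292 and 0.152). Notch1 had 2 UMIs in EoE against 197 in controls, a pooled level 15.6 times lower (95% counting interval 4.26 to 129.5 times). Hes1, the classical target, was at 96.3, 62.7, 40.2 and 34.1 CPM against 155 to 353 CPM with a median of 292 (log2 fold change -2.14, SE 0.36, edgeR adjusted p = 2.04e-05). Of 8 tested members, 3 were higher (37.5%, against 28.1% of all genes) and 4 lower (50.0%, against 32.7%). Notch1, Notch2 and Notch3 have annotated overlaps.

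Genes of alarmins and antimicrobial proteins, which epithelium releases on injury, gave 4 higher and 3 lower among 8 tested. Il33, an alarmin that acts on innate lymphoid cells and mast cells, was at 303, 345, 121 and 0 CPM against 0 to 103 CPM with a median of 69.5 (log2 fold change 1.56, SE 0.55, edgeR adjusted p = 0.0181). Defb4, a β-defensin gene, was at 688, 1255, 121 and 187 CPM against 0 to 392 CPM with a median of 212 (log2 fold change 1.50, SE 0.54, edgeR adjusted p = 0.0196). Both overlapped, were highest in the young EoE mice and lost their calls without EoE mouse 9 or 10, down to 1.20 for Il33 and 0.83 for Defb4 without EoE mouse 10 (edgeR adjusted p = 0.122 and 0.246). Defb4 was also lost without control mouse 5 (1.37, edgeR adjusted p = 0.0642), neither gene was called by DESeq2, and Defb4 was at -1.65 (edgeR adjusted p = 0.0887) from the EoE cells under 250 genes. S100a14 (0.68) and S100a16 (0.96) rose with no overlap. S100a10 (-3.34) and S100a11 (-2.92), members of the same calcium-binding family, fell with no overlap. S100a11 has a copy and reached -3.60 without EoE mouse 9. Il1rn, the interleukin 1 receptor antagonist, fell by 1.29 with overlap.

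Protease inhibitors showed 2 higher and 5 lower of 10 tested. Slpi, the secretory leukocyte protease inhibitor, was at 2298, 2697, 724 and 528 CPM against 0 to 1188 CPM with a median of 558 (log2 fold change 1.54, SE 0.61, edgeR adjusted p = 0.0335), and Serpinb3a at 2339, 2776, 664 and 920.0 CPM against 90.8 to 1271 CPM with a median of 608 (log2 fold change 1.33, SE 0.46, edgeR adjusted p = 0.0149). Both overlapped and were highest in the young EoE mice. From the EoE cells under 250 genes they were at -1.66 (edgeR adjusted p = 0.0738) and -1.84 (edgeR adjusted p = 0.00563). Both calls were lost without EoE mouse 9 (1.31 and 1.15), EoE mouse 10 (1.21 and 1.04) or control mouse 5 (1.45 and 1.19), that of Slpi also without control mouse 1 or 4 (1.53 and 1.64), and neither was made by DESeq2. Slpi has an annotated overlap and Serpinb3a a copy. Serpinb5 (-1.93), Cst3 (-2.15) and Serpinb2 (-1.39) fell beside Cstb. Spink5, the serine protease inhibitor whose loss breaks the skin barrier, was at 1858, 2493, 423 and 392 CPM against 252 to 1083 CPM with a median of 820.0 and was not called over all cells. It was higher without EoE mouse 11 or 12 (1.18 and 1.17), in the young mice alone (1.43), without a filter (0.69) and with at least 10 UMIs in each of 4 mice (0.99). From the EoE cells under 250 genes Spink5 was at -1.72 (edgeR adjusted p = 0.000618) and from those within the limits at 2.01 (edgeR adjusted p = 1.77e-05).

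The interleukin 4 and 13 response list had few measured members. Of 41 listed genes, 6 were tested, of which Serpinb3a was higher and Igfbp3 (-2.53), the receptor chain gene Il13ra1 (-1.96) and the signal transducer gene Stat6 (-2.04) were lower, each of the last 3 on 5 to 7 UMIs in EoE. Igfbp3 reached -3.30 without EoE mouse 9. Tslp had 0 UMIs in EoE and 1 in controls, and a change in it was not detectable at this depth. Interferon response genes gave 0 higher and 1 lower, Ifi27 (-1.48, but -2.11 without EoE mouse 10 and -1.09 without EoE mouse 9, edgeR adjusted p = 0.0725), of 2 tested, and Ifitm3 was not called (-0.29) but was at -3.31 (edgeR adjusted p = 3.08e-05) from the EoE cells within the limits. For MHC class I, H2-D1 had 1 UMI in EoE against 1113 in controls, a pooled level 176 times lower (95% counting interval 31.5 to 6958 times), that UMI being in EoE mouse 9. H2-K1 fell by 1.60, Calr, which encodes a chaperone of class I loading, by 1.21, and B2m was not called (0.05), making 3 lower and 0 higher of 6 tested. H2-D1 and H2-K1 have copies. No MHC class II gene was tested; H2-Ab1 had 4 UMIs in EoE and 57 in controls.

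Genes of granulocyte-macrophage colony-stimulating factor signaling were chosen because the study names that pathway for EoE in these same samples, and so are not independent evidence. Of 12 tested, 4 were higher and 4 lower (33.3% each, against 28.1% and 32.7% of all genes), with a median of -0.44. The list took 0.354 to 0.396% of the UMIs of an EoE mouse and 0.229 to 0.278% of those of a control. Its share without the higher members was not computed. Stat3, which relays cytokine receptors to the nucleus, was at 1279.8, 1160.5, 1690.4 and 1261 CPM against 318 to 445 CPM with a median of 377 (log2 fold change 1.82, SE 0.17, edgeR adjusted p = 5.32e-09). Nras was at 1128, 831, 986 and 1550.4 CPM against 219.6 to 280.2 CPM with a median of 245 (log2 fold change 2.17, SE 0.18, edgeR adjusted p = 8.05e-10), and Map2k1 (1.26) and the kinase gene Pim1 (0.76) also rose. Hras (-3.38), Mapk3 (-2.77) and Ccnd1 (-1.68) fell, so related kinases and GTPases of the same cascade had opposite signs. Map2k1, Nras, Hras and Mapk3 have neither an overlap nor a copy, whereas Stat3, Pim1 and Ccnd1 have an overlap. Mapk3 reached -3.63 without EoE mouse 12.

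Glucocorticoid receptor targets, chosen for the same reason and with the same limit, gave 4 higher and 3 lower of 12. The metallothionein genes lie side by side, and they moved apart. Mt2 was at 5023, 5629.9, 8331 and 5452 CPM against 55.6 to 242 CPM with a median of 111 (log2 fold change 5.71, SE 0.27, edgeR adjusted p = 2.92e-14), whereas Mt1 was at 1211, 1082, 1368 and 1056 CPM against 2376 to 3039.7 CPM with a median of 2757 (log2 fold change -1.23, SE 0.18, edgeR adjusted p = 4.04e-06). Neither overlapped, and Mt2 and Glul have annotated overlaps. Nfkbia (0.66) and Glul (0.67) were higher over all cells and at -0.33 (edgeR adjusted p = 0.424) and -1.03 (edgeR adjusted p = 0.0319) from the EoE cells within the limits. Nfkbia was lost without EoE mouse 9 or 11 (0.60 and 0.50) or any of control mice 1, 2, 4 and 6 (0.50 to 0.60), and with total UMIs as the scale (0.50). Dusp1, which inactivates MAP kinases, was at 261, 204, 121 and 85.2 CPM against 1782 to 2185 CPM with a median of 1981 (log2 fold change -3.51, SE 0.26, edgeR adjusted p = 7.15e-11), and Anxa1 fell by 1.96. Nr3c1, the receptor itself, had 14 UMIs in EoE and was not tested.

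Senescence and p53 target genes, again a pathway the study names from these samples, gave 2 higher and 3 lower of 9 tested. Cdkn1a, which encodes the cell cycle inhibitor p21 and has an annotated overlap, was at 1376, 1427, 926 and 869 CPM against 616 to 1001 CPM with a median of 825 (log2 fold change 0.53, SE 0.20, edgeR adjusted p = 0.0245). Its values overlapped, its call was lost without any of control mice 2, 4, 5 and 6 and EoE mice 9 and 10 (0.41 to 0.48, edgeR adjusted p from 0.0560 to 0.0934), with total UMIs as the scale (0.36), without a filter (0.39), with thinned controls (0.42) and in the old mice alone (0.10), and it was at -0.27 (edgeR adjusted p = 0.264) from the EoE cells under 250 genes. Cdkn1b, which encodes p27, was at 440.4, 894, 805 and 596 CPM against 79.5 to 143 CPM with a median of 105 (log2 fold change 2.66, SE 0.22, edgeR adjusted p = 6.32e-10) with no overlap. Trp53 fell by 1.50, Igfbp3 by 2.53, and Igfbp7 had no UMI in EoE. Cdkn2a had 0 UMIs in EoE and 6 in controls. For p21 protein, the study reports stronger staining in EoE epithelium than in controls or ESCC, with p21 also seen in basal cells. Protein staining and the summed RNA counts given here are different measures.

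Immediate early genes, which respond within minutes to stress and to tissue dissociation, gave 7 higher and 9 lower of 21 tested with a median of -0.05. Ier2 (1.73), Zfp36l1 (1.47) and Klf6 (0.57) rose beside Klf4, and Zfp36 (-1.09), Jun (-1.06), Egr1 (-0.99) and Fos (-0.53) fell beside Dusp1. Fos lost its call without EoE mouse 9, 10 or 11 (-0.41, -0.42 and -0.49) and Klf6 without control mouse 2 or 6 (0.42 and 0.44). Zfp36, Zfp36l1, Jun and Dusp1 have annotated overlaps. Among 17 heat shock genes 3 rose, namely Hspb1 (2.19), Hspa1b (0.86) and Bag3 (0.77), and 6 fell, among them Hspb8 (-0.84), Hsp90b1 (-0.68), Hspd1 (-0.64) and Hsp90ab1 (-0.54). Hspb1 has a copy, and 4 of these calls were lost without 1 mouse: Hsp90ab1 without EoE mouse 9 or 12 (-0.43 and -0.42), Hsp90b1 and Hspd1 without EoE mouse 11 (-0.40 and -0.61) or 12 (-0.60 and -0.43), and Bag3 without EoE mouse 12 (0.68).

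Metabolic lists were mostly lower. Nuclear genes of oxidative phosphorylation, the mitochondrial pathway that makes most ATP, were lower in 49 and higher in 4 of 65 tested (75.4% lower, against 32.7% of all genes), with a median of -1.84. Cox8a was at 440.4, 361, 543 and 239 CPM against 1443 to 1887 CPM with a median of 1613 (log2 fold change -2.06, SE 0.22, edgeR adjusted p = 2.91e-08), and Uqcrh (-2.06), Cox6a1 (-5.07) and Atp5g3 (-5.45) fell. Ndufs1 (1.87), Ndufc1 (1.44), Ndufa2 (1.39) and Atp5g1 (3.36) rose, so Atp5g1 and Atp5g3, which encode the same subunit of ATP synthase, moved apart. Atp5g1 has a copy. Among the 36 members with neither an overlap nor a copy, 31 were lower and 1 higher, with a median of -2.07. The list took 0.532 to 0.680% of the UMIs of an EoE mouse and 1.74 to 2.03% of those of a control.

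Glycolysis enzymes were lower in 7 and higher in 1 of 11 tested, with a median of -1.64. Ldha, the lactate dehydrogenase gene, was at 110.1, 62.7, 80.5 and 136 CPM against 551 to 668 CPM with a median of 565 (log2 fold change -2.59, SE 0.24, edgeR adjusted p = 3.87e-09), and Tpi1 (-2.71), Eno1 (-2.37) and Hk1 (-2.13) fell while Hk2 rose (1.20, weaker without EoE mouse 12 at 0.87, edgeR adjusted p = 0.0723). Antioxidant genes were lower in 15 and higher in 5 of 25, with a median of -1.49 that was -0.88 without EoE mouse 9. Gstm1, a glutathione transferase gene, was at 1266, 1584, 1650.2 and 1840.0 CPM against 4269 to 7114 CPM with a median of 4772 (log2 fold change -1.69, SE 0.21, edgeR adjusted p = 3.03e-07), and Gsta4 (-1.98), Fth1 (-1.49) and Adh7 (-0.73) fell. Sod1 was at 3894, 5049.7, 4809.7 and 6593 CPM against 1847 to 2316 CPM with a median of 2054 (log2 fold change 1.29, SE 0.18, edgeR adjusted p = 1.95e-06), and Gclc (1.06), Gclm (0.55) and Sod2 (0.46) rose over all cells, but Sod1 was at -0.53 (edgeR adjusted p = 0.118) and Gclm at -1.27 (edgeR adjusted p = 0.00165) from the EoE cells within the limits. Gclm was lost without EoE mouse 11 (0.46) or any of control mice 2, 5 and 6 (0.42 to 0.48), and Sod2 without EoE mouse 9 or 10 (0.45 and 0.40) or any 1 control mouse (0.37 to 0.44). The call of Sod2 was also lost with relative log expression factors (0.40), total UMIs (0.30), DESeq2 (0.40), no filter (0.33) and thinned controls (0.53), in either age alone and in either set of EoE cells. Sod1, Sod2 and Eno1 have copies, and Gclm, Hk1 and Tpi1 have annotated overlaps. Nfe2l2, which encodes the antioxidant regulator NRF2, was not called (-0.15).

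The aryl hydrocarbon receptor list, which shares Gsta4 and Gstm1 with the antioxidant list and is also a pathway taken from the study, had 5 lower and 1 higher of 12. Aldh3b2 (-1.38), Gstp1 (-6.30 and 1 UMI in EoE, in mouse 10), which has a copy, and the chaperone gene Hsp90ab1 (-0.54) made up the other falls. Ptges3, which encodes the co-chaperone p23, was higher at 881, 957, 604 and 699 CPM against 124 to 242 CPM with a median of 148.

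Mitochondrially encoded transcripts moved against each other within 1 genome. ND6, the only protein gene of the light strand, was at 16527, 21657, 31474 and 39203 CPM against 3717 to 10413 CPM with a median of 4306 (log2 fold change 2.32, SE 0.29, edgeR adjusted p = 2.93e-07), and ND5 (1.48) and ND2 (1.23) rose as well. COX1 was at 1087, 1333, 1268 and 1431 CPM against 7717 to 18506 CPM with a median of 12696 (log2 fold change -3.33, SE 0.26, edgeR adjusted p = 1.59e-10), and ND1 (-2.17) and CYTB (-1.80) fell. Of 7 tested, 3 were higher and 3 lower. Without a stated strand in counting, reads of ND5 and ND6, which adjoin on opposite strands, cannot be told apart.

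Cytosolic ribosomal protein genes were spread in the same way. Of 59 tested, 18 were higher and 30 lower, from -7.73 to 5.65 on the log2 scale. Rplp1 was at 179, 298, 483 and 324 CPM against 17380.4 to 20404 CPM with a median of 18556 (log2 fold change -5.90, SE 0.29, edgeR adjusted p = 3.66e-14), and Rps3 (-2.90) and Rpl4 (-2.58) fell. Rps20 was at 1968, 1756, 1972 and 1550.4 CPM against 346 to 999 CPM with a median of 447 (log2 fold change 1.86, SE 0.24, edgeR adjusted p = 5.03e-07), and Rpl8 (1.49) rose as well. From the EoE cells within the limits Rpl8 was at 0.48 (edgeR adjusted p = 0.146). Over all cells, the log2 fold changes of the 59 genes had an SD of 3.13. The same list had an SD of 2.87 and a median of 3.20 between ESCC and the same control mice, and an SD of 0.34 between the old and the young controls. Only 11 of the 59 have neither an overlap nor a copy, and of these 10 were lower and 1 higher.

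**Figure D4:**
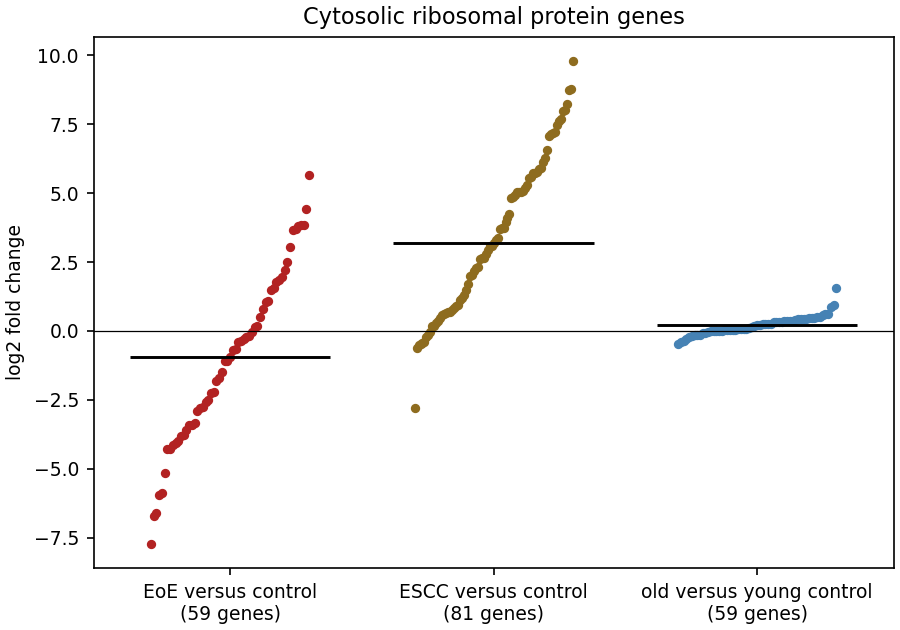
Log2 fold change of each tested cytosolic ribosomal protein gene, sorted by value, in 3 comparisons, with a bar at the median. Values span -7.73 to 5.65 for EoE over control and -2.81 to 9.80 for ESCC over the same controls, and stay within -0.46 to 1.57 for old over young controls.

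Other abundant transcripts followed no single list. Actb, which encodes β-actin, was at 26820.3, 36571, 32661 and 32746 CPM against 4392 to 5948 CPM with a median of 5144 (log2 fold change 2.64, SE 0.19, edgeR adjusted p = 6.90e-11), and Serbp1 (1.08) and Itm2b (0.64) rose. Eef1a1 (-2.37) and Rack1 (-2.85), which serve translation, fell. Actb, Eef1a1 and Rack1 have copies. From the EoE cells within the limits Serbp1 was at 0.15 and Itm2b at 0.55 (edgeR adjusted p = 0.660 and 0.0665). The list of nuclear-retained RNAs also holds the protein-coding gene Lars2, and Snhg11, which had no UMI in controls, and 4 of its 5 tested members rose. Lars2 was called in young mice (3.22) but not in old mice (0.38, edgeR adjusted p = 0.428). Malat1 was at 633, 533, 1207 and 1159 CPM against 338 to 453 CPM with a median of 408 (log2 fold change 1.10, SE 0.21, edgeR adjusted p = 0.00011). Kcnq1ot1 was at 2.32, both of these with an annotated overlap, while Neat1 was not called (-0.24). Kcnq1ot1 was at -0.19 (edgeR adjusted p = 0.825) and Malat1 at 0.21 from the EoE cells within the limits.

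Genes of G2 and M phase were more often lower than higher, while those of S phase were called in both directions. Top2a, a topoisomerase gene of dividing cells, was at 206, 455, 362 and 494 CPM against 313 to 517 CPM with a median of 358 and was not called (-0.04), nor was Mki67 (-0.19). Of 33 tested G2 and M phase genes, 14 were lower (42.4%, against 32.7% of all genes) and 2 higher (6.06%, against 28.1%), with a median of -0.38. That list took 0.405 to 0.457% of the UMIs of an EoE mouse and 0.556 to 0.670% of those of a control. Kif23 (1.97) and Ctcf (1.31) rose, and Ube2c (-1.13), Cks1b (-2.37), Ckap2 (-1.06) and Anp32e (-0.98) fell, as did Cdk1 (-3.68, with UMIs in EoE mouse 9 alone), the kinase that drives mitosis. Ckap2 was lost without EoE mouse 11 (-0.82, edgeR adjusted p = 0.0510). Cdc20 and Tubb4b, which have copies, had no UMI in EoE and 219 and 234 in controls. Of 7 S phase genes, 3 were higher and 3 lower (42.9% each, against 28.1% and 32.7% of all genes). Ubr7 (2.57), Nasp (1.54) and Usp1 (1.17) rose. Nasp and Usp1 lost their calls from the EoE cells within the limits (0.06 and 0.38, edgeR adjusted p = 0.952 and 0.479) and in young mice alone (1.17 and 0.60). Rrm1 (-2.28) and Mcm5 (-1.52) fell, Mcm5 being lost without EoE mouse 9 or 10 (-1.24 and -1.28). Cdca7 had 2 UMIs in EoE against 288 in controls, 22.8 times lower (95% counting interval 6.25 to 188.9 times).

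**Figure D5:**
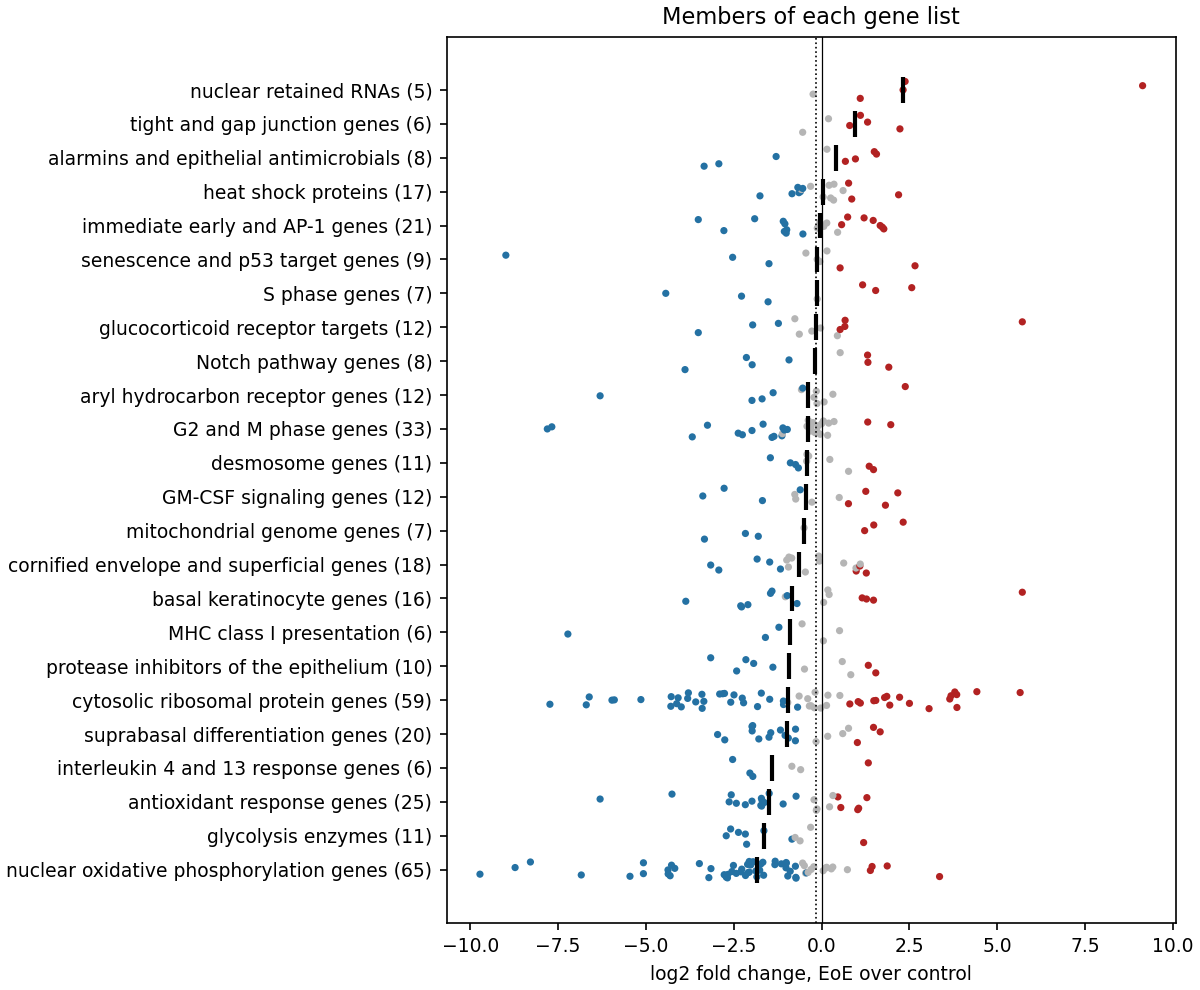
Log2 fold change of every tested member of the 24 lists with 5 or more tested members, with the number tested in brackets, red for called higher, blue for called lower and grey for not called. Black bars mark list medians and the dotted line the median of all tested genes (-0.15), from which nuclear oxidative phosphorylation (-1.84) and nuclear-retained RNAs (2.32) lie farthest. The latter list includes the protein-coding gene Lars2.

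Markers of other cell types took few UMIs in both groups, at most 0.0801% of those of any mouse for a list, while the keratins named above were present in every mouse. In these summed counts, fewer cells of a type and less RNA per cell cannot be told apart. Immune markers had 1 to 6 UMIs per EoE mouse and 0 to 6 per control, and eosinophil, mast cell and neutrophil markers 0 to 2 and 0 to 4. EoE mice had fewer UMIs in all, and as a share immune markers took 0.00117 to 0.00974% in EoE and 0 to 0.00291% in controls. The eosinophil receptor gene Ccr3 had no UMI in any mouse, and Ptprc, which encodes the pan-leukocyte antigen CD45, had 1 UMI in EoE and 0 in controls. Of the 22 eosinophil, mast cell and neutrophil markers, 15 were among the genes in the counts. Siglecf, Il5ra, Epx, Prg2 and Ear1 were not among them. The study states that epithelium-enriched tissue kept it from evaluating inflammatory cells, and a heading of its methods names an exclusion of non-epithelial cells. A change in eosinophils was therefore not tested. Fibroblast markers had 10 to 18 UMIs per EoE mouse (0.0128 to 0.0250%) and 34 to 145 per control (0.0107 to 0.0801%), mostly Dcn, which was not called (-0.92). It was lower without control mouse 6 (-1.17, edgeR adjusted p = 0.0274), by DESeq2 (-1.09, adjusted p = 0.0413), with total UMIs (-1.09), without a filter (-1.05) and with thinned controls (-1.04). Endothelial markers had 20 to 32 UMIs per EoE mouse and 0 to 13 per control, and 103 of these in EoE were Pecam1 (log2 fold change 6.75, SE 0.42, edgeR adjusted p = 4.18e-12), while Kdr and Cdh5 had none. Without control mouse 1, Pecam1 was at 7.34. Muscle markers had 0 to 2 and 5 to 23 UMIs and red blood cell markers 0 and 0 to 2. The cells called non-epithelial by these markers were 2 in EoE and 5 in controls, and without them 974 genes were higher and 1133 lower. A call needed at least 3 marker UMIs in a cell, and more of them than UMIs of the epithelial lists. EoE cells held a median of 138 UMIs, so few could be called, and this fit cannot show that other cell types were absent.

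Old and young mice were compared for a difference in the EoE effect itself. The interaction of disease with age was called in 1 of 4394 genes (0.0228%) by edgeR, with 335 at an unadjusted p under 0.05. The gene was Lars2, the mitochondrial leucyl-tRNA synthetase gene, at 1087, 1082, 201 and 187 CPM in EoE and 88.8 to 182 CPM with a median of 129.9 in controls. Its log2 fold change was 3.22 in young and 0.38 in old mice, and the difference was -2.82 (SE 0.42, edgeR adjusted p = 0.00246), with both young EoE mice far above both old ones. Without 1 of the old EoE mice the call was lost, without EoE mouse 11 (edgeR adjusted p = 0.0659) or without EoE mouse 12 (edgeR adjusted p = 0.0691), the remaining one being assumed to vary like the other groups.

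Next in order, and not called, stood Aldh3a1, Hspb1, Krt13 and Osbpl1a, each with an edgeR adjusted p of 0.112 for the difference. Krt13 had a log2 fold change of 0.44 in young (edgeR adjusted p = 0.214) and -1.27 in old mice (edgeR adjusted p = 5.63e-04). Aldh3a1, a corneal and esophageal aldehyde dehydrogenase gene, was at 1.05 (edgeR adjusted p = 0.00809) and -1.13 (edgeR adjusted p = 0.00519). Over all genes, counts of mice 9 and 10 differed by a chi-square of 2.08 per degree of freedom and those of mice 11 and 12 by 1.50, against 3.76 to 4.52 between a young and an old EoE mouse, and 1.94 to 3.81 between control mice. No pair of replicates thus differed by as little as sampling noise. The labels name no sequencing batch, so age and a batch shared by mice of 1 age cannot be told apart in EoE.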

How the data were processed

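The deposited files hold UMI counts per gene and cell, 1 table for each library. By the study's methods, the authors extracted barcodes with UMI-tools 1.0.0, aligned reads with STAR 2.7.3 to GENCODE M23 on GRCm38, counted with featureCounts and filtered and sampled cells in Seurat. A range of 250 to 3500 genes and 100 to 9500 UMIs per cell is stated there, with 1500 cells drawn per condition. The tables hold 1500 cells of each condition (4500 in all), of which that range leaves 144 in EoE and 1500 in controls. Whether counting used strand is not given in the sources used here.

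Counts were summed per mouse over all deposited cells, with the 2 libraries of a control mouse pooled, and no doublet caller was run on the cells. Mice were the replicates. Genes were kept by edgeR's filterByExpr, scaled by TMM and tested by edgeR 4.0.16 (glmQLFit and glmQLFTest, limma 3.58.1, R 4.3.3), with Benjamini-Hochberg adjustment over all 3477 genes kept and a threshold of 0.05. The effect of age was an interaction term. Folds against a group without UMIs used a floor of 3 UMIs over the group, and intervals of UMI ratios are exact binomial at 95%. Intervals and floors cover counting error only. CPM were computed on the TMM-scaled total of each mouse. Tables were made with Python 3.11.15, and scripts were tested on simulated data.

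Named genes were those the study names, the 12 largest changes in each direction without overlap, the 12 most abundant called genes in each direction, up to 4 called members per list and direction with the most abundant member, and genes called for age. The choice of a further 15 tested genes came after seeing their values. The members of this comparison and all 36 lists were chosen with earlier results of these data known, and the list of sex linked genes and some genes of the other lists are not reported here. An overlap is an exon shared with another gene in GENCODE M21 on GRCm38, and a copy is a gene of which at least 10% of the 31-base words in the last 300 bases occur in a transcript of another gene.

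Alternatives were other scalings, DESeq2 1.42.0, other filters, a fit of all 13 mice, age as a covariate, cells within and under the limits, thinned controls, 1 age at a time and each mouse left out. Fits without overlapping or copied genes and a test against a 2-fold change were added after the data were seen.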

Additional observations from a re-analysis of the deposited data

Results flagged for a closer look

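Lars2 was flagged because its EoE effect differed between the ages by a test of the interaction itself (-2.82, old minus young, SE 0.42, edgeR adjusted p = 0.00246).

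In 373 groups of values looked at, 26 had a lowest or highest mouse that stood apart from the rest by Dixon's criterion, where chance flags about 1 in 20. These are values in CPM, with no explanation. Among EoE mice the highest stood apart for Gsta4 (815), F11r (413), S100a11 (55.0), H2-D1 (13.8), Gstp1 (15.7), Cdk1 (27.5) and Ptprc (17.0). The lowest EoE mouse stood apart for Cstb (40.2), Cst3 (0), Hspd1 (153) and Ube2c (109.8). Among control mice the highest stood apart for Rps27 (40.4), Rps27rt (3.97), Il1rn (280.2), Tslp (3.97), B2m (666), Nr3c1 (95.4), Cdkn2a (15.9), ND6 (10413), Rps20 (999), Dcn (585), Kdr (21.2) and Cdh5 (10.6). The lowest control stood apart for Krt32 (252), Calr (838) and Ubr7 (16.6). Several of these rest on 1 UMI.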

How the results depend on the processing

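Calls depended on which genes and cells entered. The main counts were 2114 genes called, 976 higher and 1138 lower. Without a filter 3652 were called (2276 lower), with all 13 mice 1751 were lower, and with only the EoE cells within the limits 510 were higher. Thinned controls gave 1155 (555 higher, 600 lower) of fewer genes tested. Of the alternatives chosen after seeing the data, genes with neither overlap nor copy gave 1229 (598 and 631), and a change of more than 2-fold gave 1106 (492 and 614). The share of calls that were higher, 46.2%, was 44.0% with relative log expression factors, 39.2% with total UMIs, 37.7% without a filter, 42.9% with at least 10 UMIs in each of 4 mice, 42.2% with 13 mice, 35.2% within the limits, 43.3% under 250 genes and 48.7% among genes with neither overlap nor copy. Total UMIs as the scale moved the median of all genes by -0.16. Without 1 mouse at a time, 1573 to 2414 genes were called, 759 to 1092 higher and 814 to 1358 lower (43.7 to 48.3% higher), on 2441 to 4608 tested. The interaction with age called 0 to 8 genes without 1 mouse (0 without EoE mouse 11 or 12, 8 without control mouse 3) and 12 without a filter.

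Direction turned, with a call on at least 1 side, for 21 named genes, and the cause was not tested. Turns between values not called, such as that of Krt13 (-0.16, and 0.66 within the limits), are not counted. From the EoE cells within the limits these were Krtdap (0.19), Itga6 (-0.36), Itgb4 (-0.57), Itgb1 (-0.46), Nfkbia (-0.33), Glul (-1.03), Sod1 (-0.53), Gclm (-1.27), Kcnq1ot1 (-0.19) and Sprr3 (1.26). From those under 250 genes they were Cdkn1a (-0.27), Cnfn (-1.25), Ppl (-0.65), Asprv1 (-0.44), Lor (-0.19), Serpinb3a (-1.84), Slpi (-1.66), Defb4 (-1.65), Dsc1 (-2.15), Spink5 (-1.72) and Aldh3a1 (-0.90). In old mice alone Defb4 was at -0.24 and Aldh3a1 at -1.13. No named gene turned under another scaling or DESeq2, but calls were lost with total UMIs (Bag3, Cdkn1a, F11r, Gclm, Klf6, Lor, Nfkbia and Sod2), with thinned controls (Cdkn1a, Defb4, F11r, Gclm and Sod2) and by DESeq2 (Defb4, Dsc1, Il33, Lor, Nfkbia, Serpinb3a, Slpi and Sod2). Over all named genes and alternatives, 4288 values kept their side of the threshold, 198 fell below it and 40 passed it. Of the 198, 30 came from the EoE cells within the limits, 10 from those under 250 genes, 22 from young mice alone and 24 from old mice alone. No paired analysis was possible because the EoE and control values came from different mice. The shallow EoE cells limit changes that can be seen in genes with few UMIs.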
